A study of Mus musculus with 6 samples.

Results

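Small nucleolar RNA (snoRNA) and small Cajal body RNA (scaRNA) genes were examined in bEND.3 cells, a mouse brain endothelial cell line that has been immortalized, after knockdown of the long non-coding RNA Gm39822. The genes were taken by symbol, as those named Snord or Snora (snoRNAs) or Scarna (scaRNAs) followed by a number. Their values did not enter this rule, though earlier results of these data were known when it was chosen. The rule found 149 of the 49315 genes in the count table, which were 99 box C/D genes (Snord), 41 box H/ACA genes (Snora) and 9 Cajal body genes (Scarna). They carried 147 distinct symbols, since 2 symbols stood on more than 1 row. The 4 GapmeR samples were transfected with an antisense LNA GapmeR against Gm39822 at 100 nM, and the 2 negative control samples with a control LNA GapmeR at 100 nM, both with Lipofectamine 2000. GapmeRs are short antisense oligonucleotides whose DNA centre recruits RNase H, which cuts the paired RNA, and 1 product against Gm39822 was used. After ribodepletion, total RNA went through standard library construction and was read as pairs of 150 bases, so no library was made for small RNAs in particular. The labels do not say whether the samples of a group came from separate cultures, so p-values measure only the spread between these samples.

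Most vertebrate snoRNAs are cut from the introns of longer host genes, often genes for ribosomal proteins or long non-coding RNAs whose names begin with Snhg (small nucleolar RNA host gene). Box C/D snoRNAs bind fibrillarin and guide the methylation of ribose in other RNAs, mostly ribosomal RNA, and box H/ACA snoRNAs bind dyskerin and guide the change of uridine to pseudouridine. The scaRNAs are built in the same ways but collect in Cajal bodies, where they guide the same changes in the small nuclear RNAs of the spliceosome.

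The sequences of the most counted gene of the box C/D and the box H/ACA class, and of box C/D genes whose levels the comparison turned on, are shown to make clear how short these RNAs are and where their defining boxes lie. All are transcripts of GENCODE vM39 on GRCm39, written 5′ to 3′. Snord104 lay at chr11:106391819-106391888 on the plus strand (70 bases) and Snord43 at chr15:79967048-79967155 on the minus strand (108 bases). GENCODE types the entry of Snord43 as a miRNA, unlike the other genes shown, so its ends may not be those of the small nucleolar RNA. Snord49b lay at chr11:62493905-62493976 and Snord49a at chr11:62494276-62494347, both on the plus strand and both 72 bases long. Snord53 lay at chr17:71947874-71947951 on the plus strand (78 bases), and Snora17 at chr2:26529202-26529333 on the minus strand (132 bases). In the box C/D genes capitals mark TGATGA (box C) where it began within the first 25 bases and CTGA (box D) within the last 25 bases. In Snora17 they mark ACA within the last 15 bases, and the CTGA that overlaps it was left in lower case.
Snord104: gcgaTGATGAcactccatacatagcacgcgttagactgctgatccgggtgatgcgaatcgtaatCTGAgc
Snord43: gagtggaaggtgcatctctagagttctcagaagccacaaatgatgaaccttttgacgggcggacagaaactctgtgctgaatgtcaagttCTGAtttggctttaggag
Snord49b: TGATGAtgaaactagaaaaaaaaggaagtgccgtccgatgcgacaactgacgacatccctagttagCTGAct
Snord49a: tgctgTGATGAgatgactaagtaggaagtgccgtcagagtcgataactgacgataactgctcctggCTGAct
Snord53: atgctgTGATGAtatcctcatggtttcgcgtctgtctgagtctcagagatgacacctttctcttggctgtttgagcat
Snora17: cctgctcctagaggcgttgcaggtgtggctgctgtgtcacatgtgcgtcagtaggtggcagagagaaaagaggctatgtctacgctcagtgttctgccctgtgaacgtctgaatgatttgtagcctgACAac

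The transcript strand alone was searched for these letters. Among 98 box C/D genes with a sequence, TGATGA was found in 70.4%, CTGA in 99.0% and both in 69.4%. Of 40 box H/ACA genes, 38 held ACA near the 3′ end and 0.0% held both TGATGA and CTGA, while ACA was found in 12.2% of box C/D genes. Of 8 Cajal body genes, 50.0% held both boxes of the C/D kind and 50.0% held ACA. The classes are defined by these boxes, so the match of symbols and letters describes the entries and tests nothing. The box C/D shares include the 17 near-identical Snord116l entries, each with both boxes. Snord43, in the entry typed as a miRNA, lacked TGATGA in the 5′ window, though it holds these letters further in. Snord53 lacked CTGA in the 3′ window. Snord49a and Snord49b, which lie next to each other in 1 host gene, were identical at 51 of 72 bases (70.8%).

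Before the comparison, the depth and identity of the libraries were checked. Library totals ranged from 30264086 to 37117934 counts with the GapmeR and were 29261988 and 34266811 counts with the control oligonucleotide. Gm39822, the targeted RNA, was counted 2, 1, 4 and 2 times after knockdown and 61 and 56 times in the controls. Its log2 change (the log2 of the fold change) was -4.82 with a standard error (SE) of 0.41 and an adjusted p = 8.8e-08, and edgeR's quasi-likelihood test gave this and all other adjusted p-values unless DESeq2 is named. CPM values are counts scaled to library size with TMM factors, and in bulk RNA fewer cells of a type and less RNA per cell cannot be told apart. All 10 endothelial markers had counts, and their summed level was 6430 to 7400 CPM after knockdown and 8470 to 8710 CPM in the controls, with 1 of 10 higher and 6 lower. The 10 macrophage markers summed to 213 to 400 CPM against 173 to 179 CPM (2 higher), and 6 smooth muscle and pericyte markers to 8.38 to 12.7 CPM against 1.91 to 1.97 CPM (2 higher), with none of them at 0. Their part in the results below was not tested. GapmeR 2 stood apart in the small RNAs. Its summed level of the 149 genes was 1.37 times the mean of the other GapmeR samples, and that of a list of other small structured RNAs (among them Rn7sk and Rmrp) was 1.8 times. For named small RNAs, calls that rest on this library are given without it as well, as is the summed level of the 149 genes. The sums by class are given sample by sample.

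Fewer than 1 in 2 of the genes were seen at all. Of the 149 genes, 72 (48.3%) had at least 1 count in the 6 samples together, which were 43 of 99 box C/D genes, 21 of 41 box H/ACA genes and 8 of 9 Cajal body genes. The number with counts was 56, 60, 49 and 56 in GapmeR 1 to 4, and 52 and 57 with the control, so the groups overlapped. Only 33 genes had counts in all 6 samples, and 6 had at least 10 counts in every sample. Among the 77 without counts were all 17 genes named Snord116l, which lie in Snhg14. A count of 0 in a sample allows a level of up to 0.0771 to 0.11 CPM (3 counts, counting error only). This limit assumes that reads of a gene could be placed on it and counted for it. That may not hold for many of the 77. Each Snord116l gene has 61 to 69 other near-identical copies in the genome, and a host exon lies over 53 of the 77. These RNAs were not detected at this depth and with this kind of library, which does not show that they were absent. The median length of the genes was 94 bases, and it was 106 bases for those with counts and 94 bases for those without.

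A small number of genes carried most of the signal. The 149 genes had 4228 counts together, between 0.00178% and 0.00285% of a library. Snord104 alone took 30.2% of the 4228, the 3 most counted genes 48.3%, and the 10 most counted 73.2%. Per kilobase of gene, over all 6 samples, Snord104 had the highest level (93.3 CPM per kb), followed by Snord55 (28.4), Snord58b (18.5), Snora17 (12.3), Snora28 (7.06) and Snora57 (6.89). The place of Snord58b rested on the GapmeR samples, where it stood at 25.6 CPM per kb, against 4.00 in the controls, below Snora17 at 13.1. In human cells Snord104, Snord55 and Snord58b guide methylation of large subunit ribosomal RNA, and SNORA28 and SNORA57 guide pseudouridine in small subunit ribosomal RNA. Scarna2, a long guide of the Cajal body with 414 bases, stood at 1.17 CPM per kb.

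Whether a gene was counted went with where the annotation puts it. Of 146 genes matched to GENCODE vM39, 54 had a host gene in the count table with no exon over the small RNA. Of these 54, 34 (63.0%) had counts. The Snord116l genes make up 17 of the 20 genes of this set without counts. For another 83, an annotated exon of the host lay over the small RNA, and 30 of these (36.1%) had counts. For 9, the host annotated in GENCODE was not found in the count table by its Ensembl identifier, and 7 of these (77.8%) had counts. Hosts were not searched by symbol, so some may be listed under another identifier. These 9 took 45.8% of all counts of the 149 genes, with 1278 counts on Snord104, 324 on Snora17, 202 on Snora57 and 95 on Scarna2. The same order was found with hosts of at least 1 CPM. Counts were seen for 33 of 52 genes without a host exon (63.5%) and 29 of 80 with one (36.2%). The 52 include the Snord116l genes too, since Snhg14 was at a mean of 1.28 CPM. The hosts themselves were often well expressed. All 3 matched genes in Gas5 (Snord47, Snord78 and Snord80), all 4 in Snhg12, all 3 in Snhg16 and all 3 in Hspa8 had 0 counts, although Gas5 was at a mean of 54.9 CPM and Hspa8 at 1350 CPM. A further row named Snora16a had no match in GENCODE, and it had 11 counts, none of them in the controls. RefSeq coordinates were looked up by symbol only, so they do not show where this row lies. The sources used here do not say how reads over 2 genes were counted or whether strand was used, so the counts of a small RNA and of an exon over it cannot be told apart fully.

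**Figure D1:**
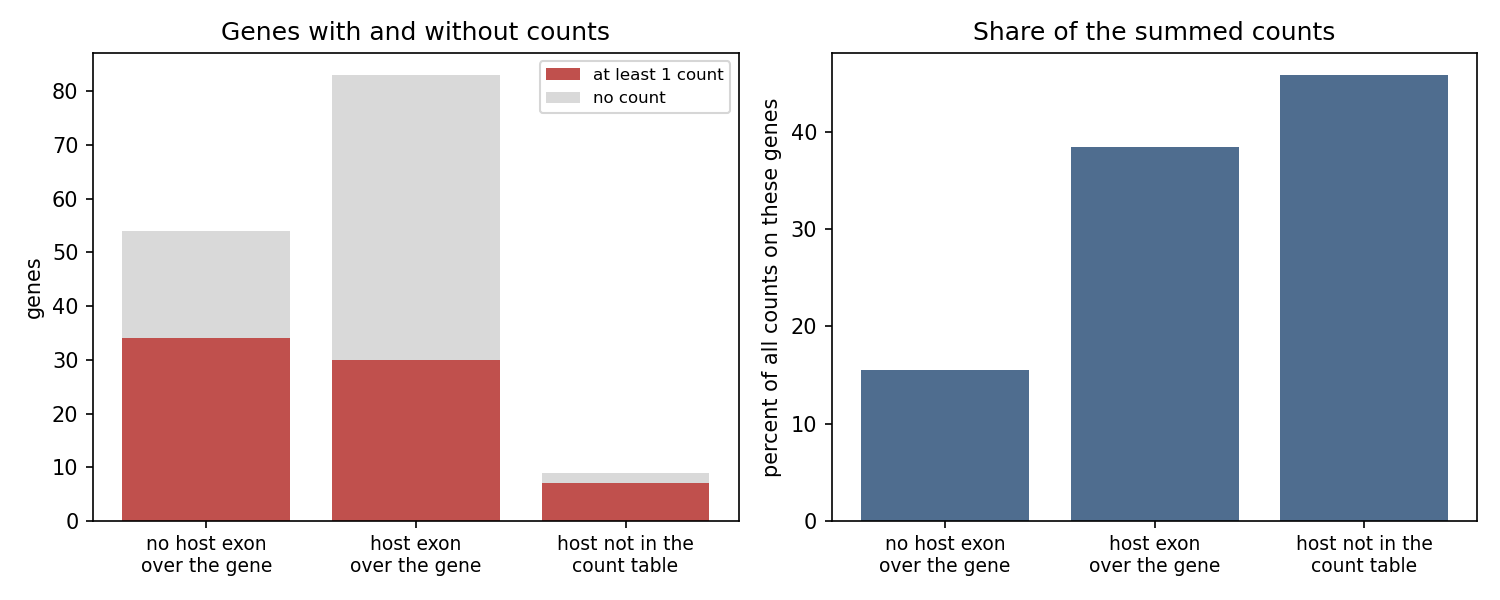
Left, number of small RNA genes with at least 1 count (red) and with none (grey) by the position of the host gene's annotated exons. Right, percent of the 4228 counts that fell on each set. Counted genes were 34 of 54 where no host exon lay over the small RNA and 30 of 83 where one did. They were 7 of 9 where the host was not found in the count table. The 54 include the 17 Snord116l genes, none of them counted.

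The first comparison asked whether the level of the class as a whole changed with knockdown of Gm39822. The summed level was 18.1, 27.1, 19.2 and 22.2 CPM in GapmeR 1 to 4 (21.7 ± 4.06, SD, n = 4) and 19.0 and 22.7 CPM in the controls (20.9 ± 2.66, SD, n = 2). The groups overlapped, and the ratio of the means was 1.04 (0.95 without GapmeR 2). Box C/D genes summed to 12.4, 17.8, 14.0 and 15.4 CPM against 11.8 and 14.3 CPM, a ratio of 1.14. Box H/ACA genes summed to 5.11, 8.14, 4.48 and 6.25 CPM against 6.46 and 7.40 CPM, a ratio of 0.865, and Cajal body genes to 0.590, 1.18, 0.742 and 0.619 CPM against 0.767 and 1.03 CPM, a ratio of 0.870. In all 3 classes GapmeR 2 was the highest sample, and the groups overlapped. For box H/ACA and Cajal body genes the overlap rested on GapmeR 2, since every other GapmeR sample lay below both controls. These differences were not tested.

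**Figure D2:**
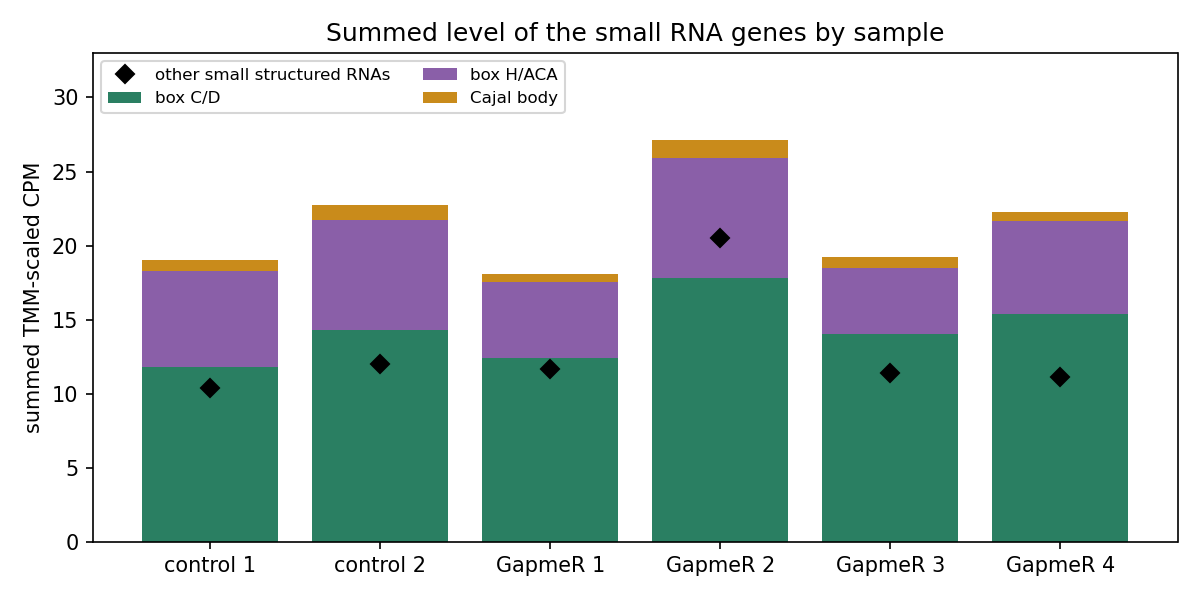
Summed TMM-scaled CPM of the 149 genes in each sample, stacked by class, with diamonds for the summed level of the other small structured RNAs. The total lay between 18.1 and 27.1 CPM in the GapmeR samples and was 19.0 and 22.7 CPM in the controls, and GapmeR 2 was highest in both measures.

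Of the 149 genes, 30 passed the filter of at least 5 counts in at least 2 samples (16 box C/D, 12 box H/ACA and 2 Cajal body genes). The other 42 genes with counts had between 1 and 22 counts in all and were not tested. Of the 30, 8 passed only through the GapmeR samples, so for them the filter itself favoured a higher level there. After knockdown 5 of the 30 genes (16.7%) were higher at an adjusted p under 0.05, where 25.4% of all 18234 genes tested were higher. By edgeR 0 were lower (1 at an unadjusted p under 0.05, and 0 by DESeq2), where 20% of all genes were lower. In either direction 45.3% of all genes were called. The share of the small RNA genes called was no higher than this background, and their counts were far smaller. The median gene among the 30 had a mean of 8.17 counts and a standard error of 0.56 on the log2 scale, against 292 counts and 0.14 for all genes tested. The median log2 change was 0.29 over the 30 genes, 0.19 without Snora16a, which had no more than 5 counts in any sample and none in the controls, and 0.03 over all genes. Without GapmeR 2 the median over the small RNA genes was -0.08. In 7 of the 30 genes (23.3%) the groups did not overlap, where 59.2% of all genes tested did not overlap. Of these 7, 5 were higher after knockdown, a direction in which 31.9% of all genes did not overlap.

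**Figure D3:**
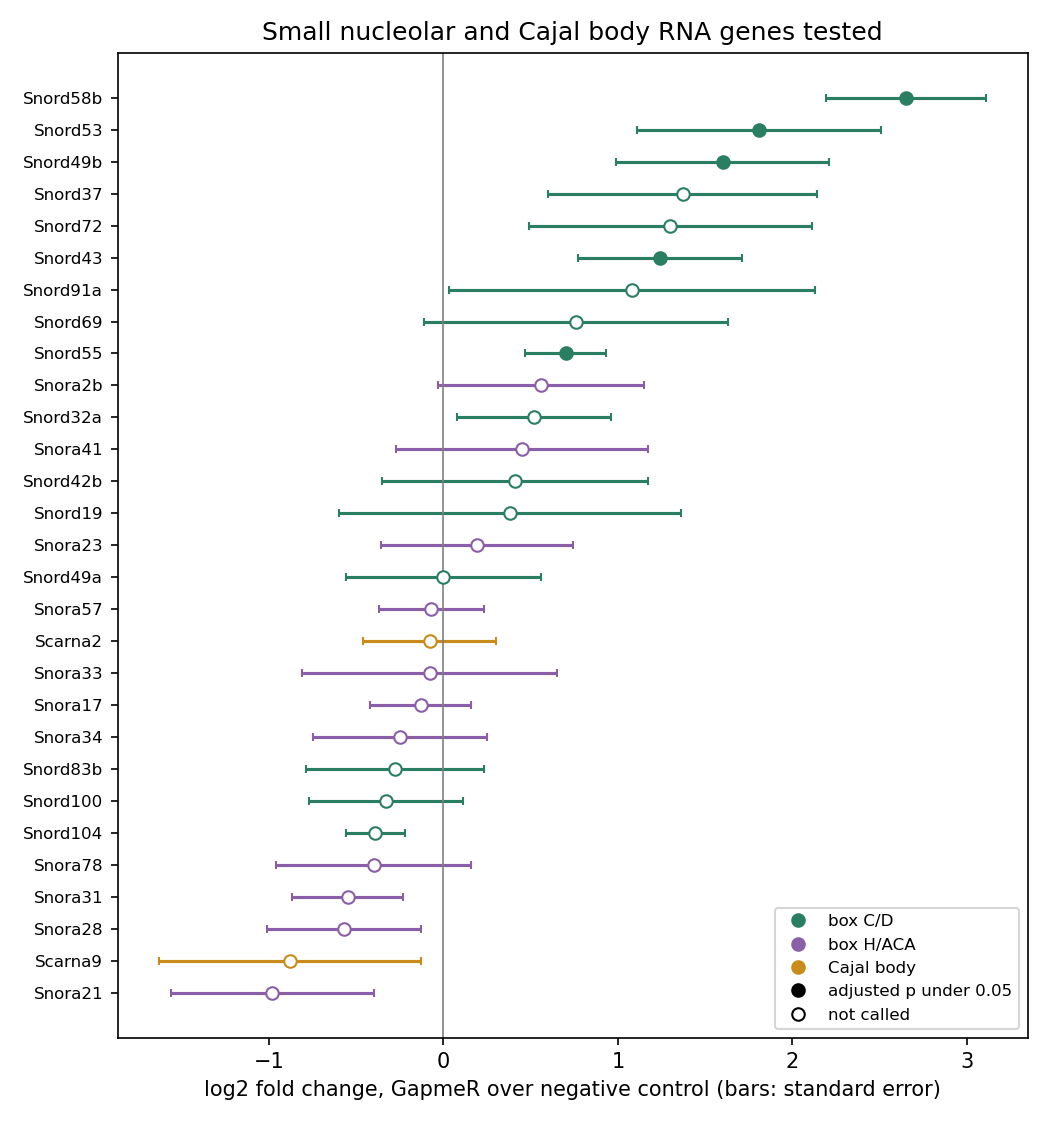
Log2 fold change of 29 tested small RNA genes (Snora16a left out) with its standard error, coloured by class, filled where the adjusted p was under 0.05. The 5 filled points are box C/D genes, led by Snord58b at 2.65, and every open point except Snord104 lies within 2 standard errors of 0.

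The 5 genes that were higher were Snord58b, Snord55, Snord43, Snord49b and Snord53, all among the 16 box C/D genes tested. Over all genes tested, 25.4% were higher. Of the 16 box C/D genes, 6 passed the filter only through the GapmeR samples, Snord49b and Snord53 among them, as did 2 box H/ACA genes. The difference between the classes was not tested. Among the 12 box H/ACA genes 0 were called by edgeR's adjusted p (1, Snora16a, at an unadjusted p under 0.05) and 0 by DESeq2.

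Snord58b, which guides methylation of large subunit ribosomal RNA and lies in the ribosomal protein gene Rpl17, changed most. Its counts were 61, 96, 50 and 29 in GapmeR 1 to 4 and only 5 and 11 in the controls. Every GapmeR sample was above both controls, and GapmeR 4 was the lowest of them. Its level was 1.69 ± 0.645 CPM (SD, n = 4) against 0.264 ± 0.115 CPM (SD, n = 2), and the log2 change was 2.65 (SE 0.46, adjusted p = 0.00028). The ratio of pooled counts per library size was 6.43, with an exact 95% counting interval of 3.87 to 11.4. It was also called by DESeq2 (adjusted p = 1.4e-06) and without GapmeR 2 (log2 change 2.41, adjusted p = 0.00025). An exon of Rpl17 lies over the 66 bases of Snord58b, in protein-coding transcripts and in transcripts marked for nonsense-mediated decay. Rpl17 itself had a log2 change of -0.06 (SE 0.09, adjusted p = 0.58). Per 1000 counts of Rpl17, Snord58b had 4.72, 5.42, 4.10 and 1.97 counts after knockdown and 0.395 and 0.822 in the controls, so the groups stayed apart on this scale too.

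Snord55, also a guide of large subunit ribosomal RNA, had the most even counts. They were 77, 84, 86 and 100 after knockdown and 47 and 46 in the controls, with no overlap between the groups. Its level was 2.57 ± 0.438 CPM (SD, n = 4) against 1.58 ± 0.194 CPM (SD, n = 2), a log2 change of 0.70 (SE 0.23, adjusted p = 0.018). DESeq2 called it as well (adjusted p = 0.029), as did the fit without GapmeR 2 (0.79, adjusted p = 0.010). Without GapmeR 4 the adjusted p was 0.050, no longer under the threshold, and with same-numbered samples as blocks it was 0.085. The call was also lost without Negative Control 2, where only 1 control remained and the log2 change was 0.60.

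Snord43, a guide of small subunit ribosomal RNA, lies between exons of Rpl3. It had 11, 28, 16 and 17 counts after knockdown and 7 and 6 in the controls. The groups did not overlap in CPM, with 0.521 ± 0.161 CPM (SD, n = 4) against 0.222 ± 0.0478 CPM (SD, n = 2), a log2 change of 1.24 (SE 0.47, adjusted p = 0.041). The call was lost with DESeq2 (adjusted p = 0.11), without GapmeR 2 (1.04, adjusted p = 0.097), without GapmeR 4 and without either control. Its host moved the same way, with a log2 change of 0.47 for Rpl3 (SE 0.08, adjusted p = 0.00015). Per 1000 counts of Rpl3, Snord43 had 0.625, 1.43, 1.00 and 0.933 counts after knockdown and 0.647 and 0.517 in the controls, and on this scale the groups overlapped. Snord83b, another box C/D gene of Rpl3 and chosen for this comparison after its values were seen, had 6, 16, 8 and 13 counts against 5 and 18, with a log2 change of -0.28 (SE 0.51, adjusted p = 0.68). This value rested on the controls, at 0.79 without Negative Control 2 and -0.82 without Negative Control 1.

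Snord49b and Snord53 had the fewest counts of the genes called, fall outside the rule for named genes, and were named after their values were seen. Both passed the filter only through the GapmeR samples, so the filter favoured a higher level there. Their p-values and intervals are therefore no independent support for a rise. Snord49b had 7, 17, 9 and 10 counts against 2 and 4, with a log2 change of 1.60 (SE 0.61, adjusted p = 0.041). The counting interval of its pooled ratio of 3.12 ran from 1.32 to 8.98. Its neighbour Snord49a, whose sequence is shown above beside it, had 7, 11, 4 and 12 counts against 3 and 12, with a log2 change of -0.00 (SE 0.56, adjusted p = 1.0), which was 1.18 without Negative Control 2 and -0.57 without Negative Control 1. The difference between the neighbours was not tested. Their host 2410006H16Rik, a long non-coding RNA, rose with a log2 change of 0.85 (SE 0.08, adjusted p = 5.8e-07), and exons of Lrrc75a on the other strand also lie over both. Per 1000 counts of this host, Snord49b had 1.66, 2.98, 2.32 and 2.47 counts after knockdown and 1.05 and 1.68 in the controls, so GapmeR 1 fell below a control.

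Snord53 lies between exons of Wdr43, a gene for a protein of ribosome assembly. It had 6, 21, 7 and 8 counts after knockdown and 2 and 3 in the controls, and GapmeR 2 was the highest by far. The log2 change was 1.81 (SE 0.70, adjusted p = 0.045), and the counting interval of the pooled ratio of 3.66 ran from 1.45 to 11.9. Such an interval covers counting error only, not the spread between samples. Without GapmeR 2, the log2 change was 1.32 and the adjusted p 0.13 for Snord53, and they were 1.38 and 0.090 for Snord49b. Both calls were also lost without GapmeR 4 and without either control. DESeq2 called neither (adjusted p = 0.11 for Snord53 and 0.13 for Snord49b). Wdr43 had a log2 change of -0.16 (SE 0.07, adjusted p = 0.064).

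**Figure D4:**
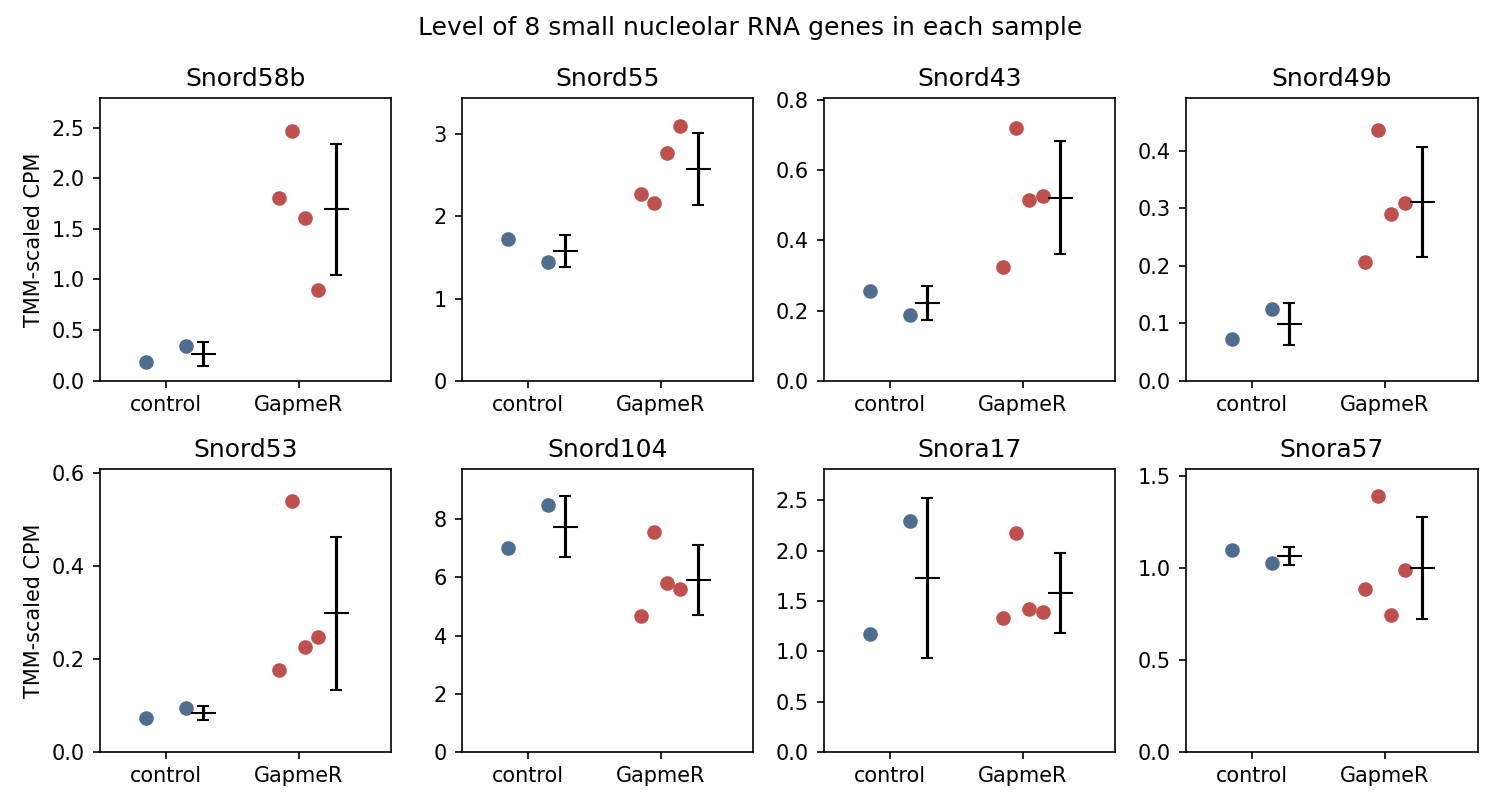
TMM-scaled CPM of 8 small nucleolar RNA genes in each sample, with the mean and SD of each group beside the points (2 control and 4 GapmeR samples). In Snord58b, Snord55, Snord43, Snord49b and Snord53 all GapmeR samples lie above both controls, and in Snord104, Snora17 and Snora57 the groups overlap.

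The most counted gene did not pass the test. Snord104, a guide of large subunit ribosomal RNA, had 159, 295, 180 and 181 counts after knockdown and 192 and 271 in the controls. Its level was 5.92 ± 1.21 CPM (SD, n = 4) against 7.75 ± 1.05 CPM (SD, n = 2), and GapmeR 2 (7.58 CPM) lay between the controls (7.01 and 8.49 CPM), while the other GapmeR samples lay below both. The log2 change was -0.39 (SE 0.17, adjusted p = 0.074, unadjusted p = 0.036). It was called lower without GapmeR 2 (-0.53, adjusted p = 0.0067) and with no filter (adjusted p = 0.028). As a share of the counts of all 149 genes, Snord104 took 26.0%, 27.9%, 30.3% and 25.2% after knockdown (27.3 ± 2.25, SD, n = 4) and 36.9% and 37.3% in the controls (37.1 ± 0.286, SD, n = 2), so the groups did not overlap in this share. Without Snord104 the summed level of the other 148 genes was 15.7 ± 2.98 CPM against 13.1 ± 1.61 CPM, a ratio of 1.20. In this sum the groups overlapped, since GapmeR 1 and GapmeR 3 (both 13.4 CPM) lay below Negative Control 2 (14.3 CPM). GapmeR 2 was the highest sample, at 1.35 times the mean of the other GapmeR samples, so the ratio rested in part on it. The difference was not tested.

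The leading box H/ACA genes were not called, and Snora17 and Snora57 differed by less than their standard error. Snora17 had 45, 85, 44 and 45 counts after knockdown and 32 and 73 in the controls, with a log2 change of -0.13 (SE 0.29, adjusted p = 0.74). The controls lay apart at 1.17 and 2.29 CPM, and leaving out Negative Control 2 turned the sign (0.46, adjusted p = 0.38). Snora57 had 30, 54, 23 and 32 counts against 30 and 33 (-0.07, SE 0.30, adjusted p = 0.86), and 1 other near-identical copy of it in the genome could share its reads. Snora28 had 17, 48, 9 and 34 counts against 28 and 41 (-0.57, SE 0.44, adjusted p = 0.32), with the widest spread between GapmeR samples of these genes. Snora31, named after its values were seen, was lower in every GapmeR sample than in either control (0.516 to 0.867 CPM against 0.909 and 1.06 CPM), but its log2 change of -0.55 did not pass the test (SE 0.32, adjusted p = 0.17).

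The Cajal body genes were counted too thinly for most tests. Scarna2, which guides methylation of the U2 small nuclear RNA, had 14, 22, 18 and 11 counts after knockdown and 13 and 17 in the controls (-0.08, SE 0.38, adjusted p = 0.88). Scarna9 had 1, 5, 1 and 4 counts against 4 and 5 (-0.88, SE 0.75, adjusted p = 0.36). Scarna17 had 0, 6, 2 and 2 counts against 2 and 4 and was not tested. Of the 24 genes tested and not called, leaving out Snora16a, log2 changes ran from -0.98 to 1.37, and 3 of them were above 1 in size with standard errors too large for a call. A missing call in these 3 genes does not show that their levels were the same.

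A further question was whether the small RNAs moved with the genes that carry them. For the 149 genes, 89 host genes were found in the count table by identifier, and 88 were tested. Of these, 31 (35.2%) were higher and 16 (18.2%) lower after knockdown, where 25.4% and 20% of all genes were. The hosts fell into groups. Of 18 long non-coding hosts, 15 were higher, with a median log2 change of 0.83, and this count was 15 under all settings tried except without either control, where it was 13. Snhg15 rose from 19.1 and 22.1 CPM in the controls to between 107 and 118 CPM, a log2 change of 2.42 (SE 0.09, adjusted p = 5.4e-12). The gene listed as 1810032O08Rik, which GENCODE names Snhg16, rose from 11.6 and 12.8 CPM to between 67.6 and 77.0 CPM (2.56, SE 0.09, adjusted p = 3.4e-12). Snhg5 (1.80), Snhg1 (1.63), Snhg12 (1.35) and Gas5 (0.81) were higher as well. These long non-coding hosts, apart from 2410006H16Rik, are outside the rule for named genes and were named after their values were seen.

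Of 24 ribosomal protein hosts, 10 (41.7%) were lower and 1, Rpl3, was higher (4.17%), against 20% and 25.4% of all genes tested. The other 13 were not called, and the median log2 change of the 24 was -0.20. The number lower was 2 without either control, 5 without GapmeR 1, GapmeR 3 or GapmeR 4, 14 without GapmeR 2 and 4 when same-numbered samples formed blocks. By library size alone, 2 of the 24 were lower and their median was -0.05. This setting also moved the median of all 18234 genes from 0.03 to 0.17. The number of all genes higher went from 4625 to 6106, and the number lower from 3643 to 2135. Fewer of all genes were called lower in each fit that left out a control as well. Of the other 46 protein-coding hosts, 15 were higher and 6 lower (21 and 2 by library size alone).

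The small RNAs and their hosts were set side by side in 24 pairs from 19 hosts in which both were tested, Snord55 left out. In 9 of the 24 pairs the log2 changes had the same sign. Across pairs, Pearson's r was -0.11 and Spearman's rho -0.11, given as a description, since pairs share libraries and some share a host. The hosts ranged from -0.54 to 1.51 and the small RNAs from -0.98 to 2.65. Snord58b and Snord53 were higher with hosts that were not called, and Snord43 and Snord49b with hosts that were higher. The rows matched to Gas5, Snhg12 and Snhg16, hosts that were higher, had no counts, so those pairs could not be compared, and the unmatched Snora16a row was not paired. For Snord104, Snora17, Snora57 and Scarna2, whose annotated hosts were not found in the count table by identifier, no host value was analysed here.

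**Figure D5:**
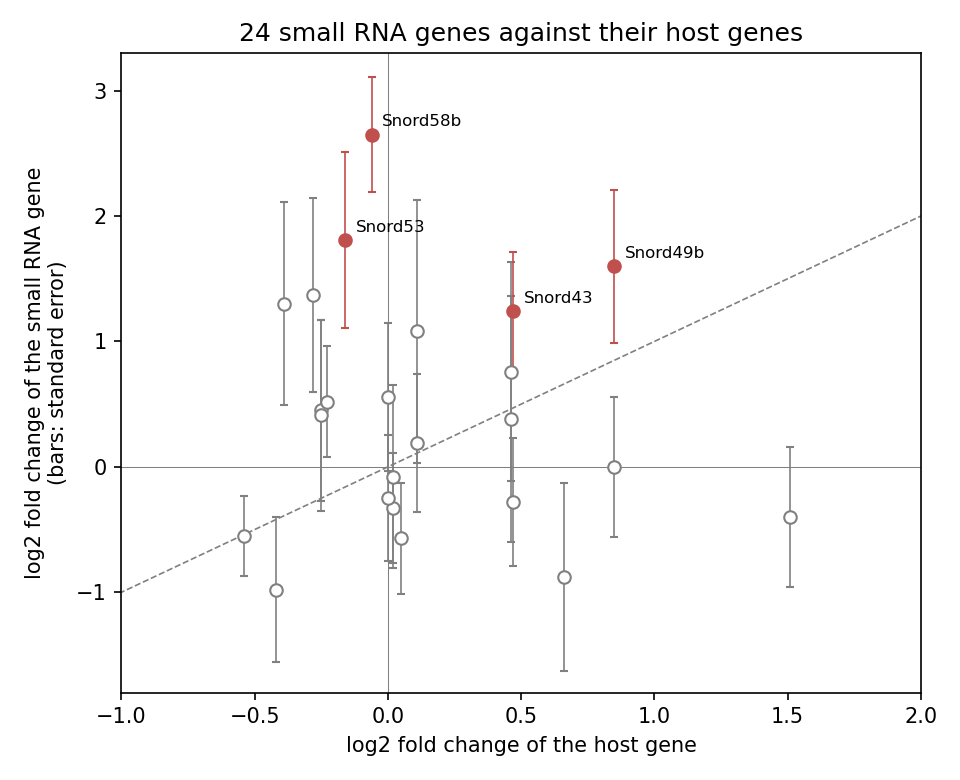
Log2 fold change of 24 small RNA genes (vertical axis, bars are standard errors) against that of their host genes (horizontal axis), with 4 genes called higher filled and named. The dashed line marks equal changes, and 9 of the 24 pairs have the same sign.

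The proteins that bind, build and trim these RNAs were measured with far more counts. A list of 43 genes, all tested, held 6 that were higher (14.0%) and 7 that were lower (16.3%), against 25.4% and 20% of all genes, and its median log2 change was 0.02. The clearest was Wrap53, which carries scaRNAs and telomerase RNA to Cajal bodies. It was at 22.6, 21.8, 23.8 and 23.5 CPM after knockdown and 12.4 and 10.5 CPM in the controls, a log2 change of 1.00 (SE 0.10, adjusted p = 5.9e-07), and it rose without overlap. Sart3, which recycles spliceosomal small nuclear RNAs, rose by 0.35 (adjusted p = 0.00083), and Gemin7 of the survival motor neuron complex was lower at -0.25 (adjusted p = 0.0067). Coil, the scaffold of the Cajal body, had a log2 change of -0.09 (adjusted p = 0.47). Of the 11 Cajal body genes 2 were higher and 1 was lower.

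Among the core proteins, Nop58 of the box C/D particle was higher (0.21, adjusted p = 0.023), and fibrillarin (Fbl), its methyltransferase, was lower (-0.28, adjusted p = 0.026). The groups overlapped for Fbl in CPM, and its call was lost in 7 of 12 other settings, with an adjusted p of 0.30 by library size only and 0.35 without Negative Control 2, but not with DESeq2 (adjusted p = 0.015). Nhp2 of the box H/ACA particle was lower, at 245, 276, 245 and 222 CPM against 320 and 325 CPM (-0.39, SE 0.08, adjusted p = 0.0012), and dyskerin (Dkc1) had a log2 change of 0.05 (adjusted p = 0.58). Of the 12 assembly factors, Rpap3, which works with the chaperone Hsp90, rose from 25.5 and 25.3 CPM to between 35.4 and 41.3 CPM (0.59, SE 0.08, adjusted p = 3.2e-05), and Znhit3 was higher (0.39, adjusted p = 0.035). Znhit6 (-0.47, adjusted p = 0.032), Tcof1 (-0.20, adjusted p = 0.035) and D10Wsu102e, the chaperone of Nop58 now named Nopchap1 (-0.19, adjusted p = 0.041), were lower. The calls of Tcof1 and D10Wsu102e were lost in 9 and 10 of 12 other settings, DESeq2 among them (adjusted p = 0.064 and 0.069).

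Of the 8 trimming factors, Papd5, which adds short adenosine tails to snoRNA precursors, was lower at 28.2, 29.7, 25.5 and 27.3 CPM against 38.1 and 37.8 CPM (-0.45, SE 0.08, adjusted p = 0.00023). Parn, which removes such tails, was higher (0.30, adjusted p = 0.0041). C1d, a cofactor of the nuclear exosome, was at 45.0, 65.9, 42.3 and 42.8 CPM against 48.3 and 56.4 CPM, so the groups overlapped (-0.09, SE 0.20, adjusted p = 0.74). The 4 proteins of the U3 particle lay between -0.12 and 0.02. By library size alone the list of 43 held 12 higher and 2 lower genes, while Wrap53, Rpap3, Sart3, Nhp2 and Papd5 kept their direction and call under every setting tried.

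Other small structured RNAs were counted in the same libraries. Of 20 symbols listed, 1 (Rnu6atac) was not found, and 5 genes were tested. Rmrp, the RNA of the ribonuclease that cuts ribosomal RNA precursors, had 57, 134, 47 and 54 counts after knockdown and 30 and 35 in the controls, a log2 change of 0.93 (SE 0.34, adjusted p = 0.039). Without GapmeR 2 it was 0.57 (adjusted p = 0.079), and the call was also lost without either control. Rn7sk, the RNA that holds the elongation factor P-TEFb inactive, had 193, 453, 164 and 169 counts against 175 and 216, so GapmeR 2 had the most and the others lay near the controls (0.09, SE 0.38, adjusted p = 0.87). Rpph1, the RNA of ribonuclease P, had a log2 change of 0.37 (adjusted p = 0.15).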

How the data were processed

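bEND.3 cells were sequenced after transfection with a Gm39822 GapmeR (4 samples) or a negative control GapmeR (2 samples). The study's methods give 4 samples for each group. The deposited values are raw counts of reads per Ensembl gene, made by the authors with bcbio-nextgen and STAR alignment to mm10. The submitters' processing notes name Trimmomatic 0.36, STAR 2.5.2b, Subread 1.5.2 and the build GRCm38. How reads over overlapping genes or strands were counted is not given in the sources used here. The table holds 1 column of counts that matched no labelled sample and was not used.

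Genes that reached 5 counts in 2 or more samples were TMM-scaled and tested with edgeR 4.0.16 in R 4.3.3 (robust quasi-likelihood test, Benjamini-Hochberg over all 18234 genes tested, threshold 0.05). Every adjusted p is from this test unless DESeq2 1.42.0 is named. A standard error is the log2 fold change divided by the square root of F. Values in CPM are TMM-scaled, with SDs between samples. Counting intervals and floors of 3 counts cover counting error only. The functions were tested on simulated data. Host genes, exons and sequences came from GENCODE vM39 on GRCm39, with 112 genes matched by identifier, 34 by symbol and 3 not at all, and with coordinates only of that build. The Ensembl release behind the counts may differ. Near-identical copies (at least 95% identity over 90% of the length) were searched with blastn 2.17.0 and found for 41 of 146 genes and 3 of those tested (Snora21, Snora41 and Snora57).

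Named genes were the 5 with the highest mean CPM, up to 20 of those called with a mean of at least 10 counts, the 3 highest of each class, their hosts, and up to 6 called genes of each list. The genes and lists were chosen with earlier results of these data known. Alternatives were DESeq2's size factors, library size only, DESeq2's Wald test, no filter, a mean of at least 10 counts, the replicate block, and each sample left out in turn. The host gene and sequence of Snord55 are not reported here.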

Additional observations from a re-analysis of the deposited data

Results flagged for a closer look

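In 4 of 42 measures tested, 1 GapmeR sample lay further from the other 3 than Dixon's limit for 4 samples allows, and chance flags about 1 in 20. In all 4 the sample was GapmeR 2. Snora17 was at 1.33, 2.18, 1.42 and 1.39 CPM in GapmeR 1 to 4 (gap over range 0.894). The summed level of the other small structured RNAs was 11.7, 20.5, 11.4 and 11.1 CPM (0.93), and Rmrp alone was at 1.68, 3.44, 1.52 and 1.67 CPM (0.913). The long non-coding host 2410006H16Rik was at 124, 146, 125 and 125 CPM (0.962). GapmeR 2 also had the largest library.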

How the results depend on the processing

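Of the 5 small RNA genes called higher, Snord58b was called under the reported settings and all 12 others (log2 fold change 2.31 to 3.22). Snord55 was called in 10 of 13, Snord43 in 7 of 13, Snord53 in 7 of 12 and Snord49b in 5 of 12, and none changed sign. The number higher was 2 with DESeq2's Wald test, 3 with a mean of at least 10 counts, which removes Snord49b and Snord53 before the test, and 1 to 6 with a sample left out. It was 2 without GapmeR 2 (Snord55 and Snord58b) or Negative Control 1, and 1 without GapmeR 4 or Negative Control 2. The number lower was 1 with no filter and 0 to 1 with a sample left out (Snord104 both times). Genes with counts fell from 72 to 30 at 5 counts in 2 samples and to 6 at 10 counts in every sample. By library size only, host genes lower fell from 16 to 4, and the list of proteins went from 6 to 12 higher and from 7 to 2 lower. With a sample left out, host genes higher were 26 to 32 and lower 4 to 23, with 4 lower without Negative Control 2 and 6 without Negative Control 1. The protein list had 3 to 8 genes higher and 3 to 9 lower, the other small structured RNAs 0 to 1 higher (0 without GapmeR 2 or Negative Control 1), and all genes called were 5232 to 8719, against 8268 with all samples, the lowest without Negative Control 2. The summed level ratio was 0.95 to 1.20 in every setting, and the cause of these shifts was not tested. A fit with the replicate number as a block, on samples 1 and 2 of each group, gave 2 small RNA genes higher, 7 host genes lower, 4 proteins lower and 3 other small structured RNAs higher. Same-numbered samples deviated from their group means with correlations of -0.0554 and 0.116 over 10922 genes, so the numbers were not taken to pair the samples. Over single genes under other settings, 199 values kept their call and direction, 63 lost the call, 4 gained one and no called value reversed. Another 124 stayed uncalled, and 18 of these, from 6 genes that include Snora17, Snord49a and Snord83b, changed sign. Depth limits these results, since 19 of the 30 genes tested had a standard error above 0.5 on the log2 scale.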

Other observations

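The count table also holds 988 genes that GENCODE vM39 types as snoRNA or scaRNA but that the symbol rule did not take. Of these, 166 (16.8%) had counts and 37 passed the filter, 10 of them only through the GapmeR samples. After knockdown 4 (10.8%) were higher by edgeR's adjusted p and 33 were not called, where 25.4% of all genes tested were higher. Their summed level was 12, 15.9, 12.5 and 14.2 CPM in GapmeR 1 to 4 (13.7 ± 1.74, SD, n = 4) and 8.87 and 9.28 CPM in the controls (9.07 ± 0.286, SD, n = 2), so the groups did not overlap. The ratio of the means was 1.51, and the difference was not tested. Genes of this set with counts numbered 93, 102, 94 and 96 in GapmeR 1 to 4 and 67 and 74 in the controls. The whole count table went the same way, with counts for 22830 to 23566 genes against 20573 and 21087. Among single genes tested, 59.2% did not overlap. The higher sum can therefore not be called particular to these genes.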
